A study of Mus musculus with 12 samples.

Results

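The immunity-related GTPases (IRG proteins) are a family of 47-kDa GTPases that mouse cells make in response to interferon. Of 16516 gene symbols in the tables, 9 were followed here: the regulators Irgm1, Irgm2 and Igtp and the effectors Iigp1, Tgtp1, Tgtp2, Ifi47, Gm4951 and F830016B08Rik. They were chosen by symbol, and all 9 occur in all 4 tables of expression values. The cells were mouse bone marrow-derived macrophages (BMMs), which are macrophages grown out of bone marrow in culture. They were either labelled MGMT KO (KO) or labelled WTfl/fl (WT). MGMT is a DNA repair protein that takes alkyl groups off guanine. The labels give neither the age of the mice nor how or in which cells the gene was removed. Cells of each genotype received DMXAA, an agonist of mouse STING, or the vehicle DMSO for 24 h. The series text gives the DMXAA concentration as 10 mg/ml, a unit that was not checked and may be a misprint. The 4 groups, KO with DMXAA, WT with DMXAA, KO with DMSO and WT with DMSO, had 3 RNA-seq libraries each, all of 1 labelled batch. Nothing in the labels ties the libraries of a group to separate mice, so the p-values measure only the spread between these libraries, which may be technical. The study asked how macrophages without MGMT answer STING.

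STING is the receptor for cyclic dinucleotides made when DNA is sensed in the cytosol, and its activation leads to type I interferon and so to interferon-stimulated genes. IRG effector proteins gather on the membrane of vacuoles that hold parasites such as Toxoplasma gondii, or bacteria such as Chlamydia trachomatis, and help to break it open. The regulators sit on the membranes of the cell's own organelles, where they keep effectors in the inactive, GDP-bound state. Loss of Irgm1 in mice is known to leave macrophages and lymphocytes poorly able to withstand infection.

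The split between regulators and effectors can be read in the genes themselves, in the first GTP-binding motif (the P-loop). The regulators have a methionine codon where effectors have the usual lysine codon, which is why they are also called GMS and GKS proteins. The coding stretches over this motif are written 5′ to 3′ on the coding strand, as read from the mm10 genome with the GENCODE annotation, and the capitals mark the codon that differs. Irgm1, Irgm2 and Igtp had the same 24 bases.
Irgm1 (chr11:48866761-48866784, minus strand): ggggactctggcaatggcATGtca
Irgm2 (chr11:58219695-58219718, plus strand): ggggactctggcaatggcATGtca
Igtp (chr11:58206275-58206298, plus strand): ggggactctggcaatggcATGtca
Tgtp1 (chr11:48987667-48987690, minus strand): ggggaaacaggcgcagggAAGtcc
Tgtp2 (chr11:49059534-49059557, minus strand): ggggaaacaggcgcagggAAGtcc
Ifi47 (chr11:49095648-49095671, plus strand): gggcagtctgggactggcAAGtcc
Iigp1, Gm4951 and F830016B08Rik also had a lysine codon at this place.

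The transcription factor complex ISGF3 binds the interferon-stimulated response element (ISRE). The motif was searched on both strands as the letters GAAANNGAAA, in windows from 250 bases before to 50 bases after the RefSeq start site (GRCm38.p6). Windows were matched for 6 of the 9 members, and the stretches run 5′ to 3′ on each gene's own strand, with the matched letters in capitals and 8 bases on either side.
Irgm1 (chr11:48871427-48871458, minus strand): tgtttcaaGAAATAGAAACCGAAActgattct
Irgm2 (chr11:58214905-58214930, plus strand): caggaactGAAACTGAAAgctgttcg
Igtp (chr11:58199514-58199539, plus strand): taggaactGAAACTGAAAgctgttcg
Tgtp1 (chr11:48992306-48992331, minus strand): caggaatcGAAACTGAAAcctacctg
Tgtp2 (chr11:49064265-49064290, minus strand): caggaatcGAAACCGAAAcctactct
The ISRE letters occurred in 5 of these 6 windows. In Irgm1 the capitals cover 2 overlapping matches. The window of Ifi47 did not hold the motif as spelled here. Of all 32851 windows of this length, 3.44% held the letters. A match describes the letters only, and the letters were chosen after the sequences had been seen.

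The 6 members on chromosome 11 (mm10) lie in a pair of clusters. Irgm1 (chr11:48861968-48871683), Tgtp1 (chr11:48985327-48994172), Tgtp2 (chr11:49057194-49064206) and Ifi47 (chr11:49076587-49096974) form one, and Igtp (chr11:58199556-58207591) with Irgm2 (chr11:58199618-58222782) the other. Exons of Igtp and Irgm2 share 162 bases on the same strand, those of Tgtp1 and Gm12185 share 223, and those of Ifi47 and Olfr56 share 111. Tgtp1 and Tgtp2 were identical at 1241 of 1245 aligned coding bases (99.7%), so how the counting split reads between them is uncertain, and each value of one is uncertain against the other. The next closest pair was Iigp1 and Gm4951 (88.0%). Among the regulators, Irgm2 and Igtp were the closest (74.6%).

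The remaining members lie together on another chromosome. Gm4951, F830016B08Rik and Iigp1 follow each other in that order on the plus strand of chromosome 18 (mm10).

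Libraries held 79.5 to 98.1 M reads in listed genes (M, mega), and each KO library with DMXAA (94.1 to 98.1 M) held more than any other. Mgmt itself had 121 to 162 reads in KO libraries with DMSO, against 243 to 263 in WT libraries with DMSO, so it was lower but not absent (log2 -0.83, adjusted p = 0.00566). With DMXAA it had 33 to 61 reads in KO against 85 to 107 in WT. The 6 macrophage markers (Adgre1, Csf1r, Cd68, Mertk, Fcgr1 and Itgam) had reads in all groups and summed to 7221 to 7351 reads per M reads (RPM) in KO with DMXAA, 7536 to 7591 in WT with DMXAA, 9804 to 9935 in KO with DMSO and 9624 to 9922 in WT with DMSO. Summed levels of neutrophil, T and NK, B, dendritic and stromal cell markers stayed at or below 7.75 RPM in every library. Several of these lists moved with genotype or treatment and are given beside the results concerned.

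With DMXAA, Ifi47 was the most abundant single IRG symbol and the order of the family was the same in both genotypes. Levels between genes are given per length, as reads per kilobase of merged exons per M reads (RPKM, mean ± SD, n = 3). Ifi47, an effector also called Irgd, was at 180.1 ± 6.06 RPKM in KO and 216 ± 6.39 in WT. The near-identical effectors Tgtp2 and Tgtp1, known together as Irgb6, followed. Tgtp2 was at 133 ± 6.12 in KO and 159.9 ± 6.44 in WT, and Tgtp1 at 99.1 ± 5.02 in KO and 122 ± 3.64 in WT. Irgm1 was the highest regulator, at 77.3 ± 1.52 in KO and 83.5 ± 1.78 in WT. Igtp, also called Irgm3, was at 41.9 ± 2.01 in KO and 54.3 ± 2.16 in WT. Irgm2 was at 30.4 ± 1.98 in KO and 37.5 ± 0.926 in WT, next to Iigp1, or Irga6, at 28.2 ± 1.83 in KO and 36.2 ± 3.06 in WT. Irgm2 and Iigp1 were the single pair of neighbours in this order whose libraries overlapped. Gm4951 was at 9.34 ± 0.546 in KO and 12.6 ± 0.703 in WT. F830016B08Rik stood last, at 0.300 ± 0.0278 in KO and 0.372 ± 0.0179 in WT. By the length of the longest transcript in place of merged exons, Iigp1 came before Igtp and Irgm2 in both genotypes. By that length Irgm1 also came before Tgtp1 in KO, where their libraries overlapped.

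With DMSO, the regulators stood above 5 of the 6 effectors, and Ifi47 was again first, at 9.71 ± 1.03 RPKM in KO and 15.5 ± 2.10 in WT. Irgm1 followed at 6.45 ± 0.243 in KO and 9.82 ± 1.06 in WT. Igtp (3.31 ± 0.215 in KO and 3.70 ± 0.553 in WT) and Irgm2 (3.17 ± 0.176 in KO and 3.77 ± 0.138 in WT) overlapped in both genotypes. Tgtp2 was at 0.578 ± 0.0790 in KO and 1.81 ± 0.147 in WT, and Tgtp1 at 0.357 ± 0.0551 in KO and 1.07 ± 0.193 in WT. Gm4951 was at 0.0685 ± 0.0126 in KO and 0.296 ± 0.0259 in WT. Iigp1 was at 0.0548 ± 0.00597 in KO and 0.168 ± 0.0755 in WT, and its libraries overlapped those of Gm4951 in KO. By the longest transcript Iigp1 stood before Gm4951 in both genotypes, with overlap in WT. F830016B08Rik had 2, 1 and 0 reads in the KO libraries, against 8, 9 and 9 in the WT libraries.

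**Figure D1:**
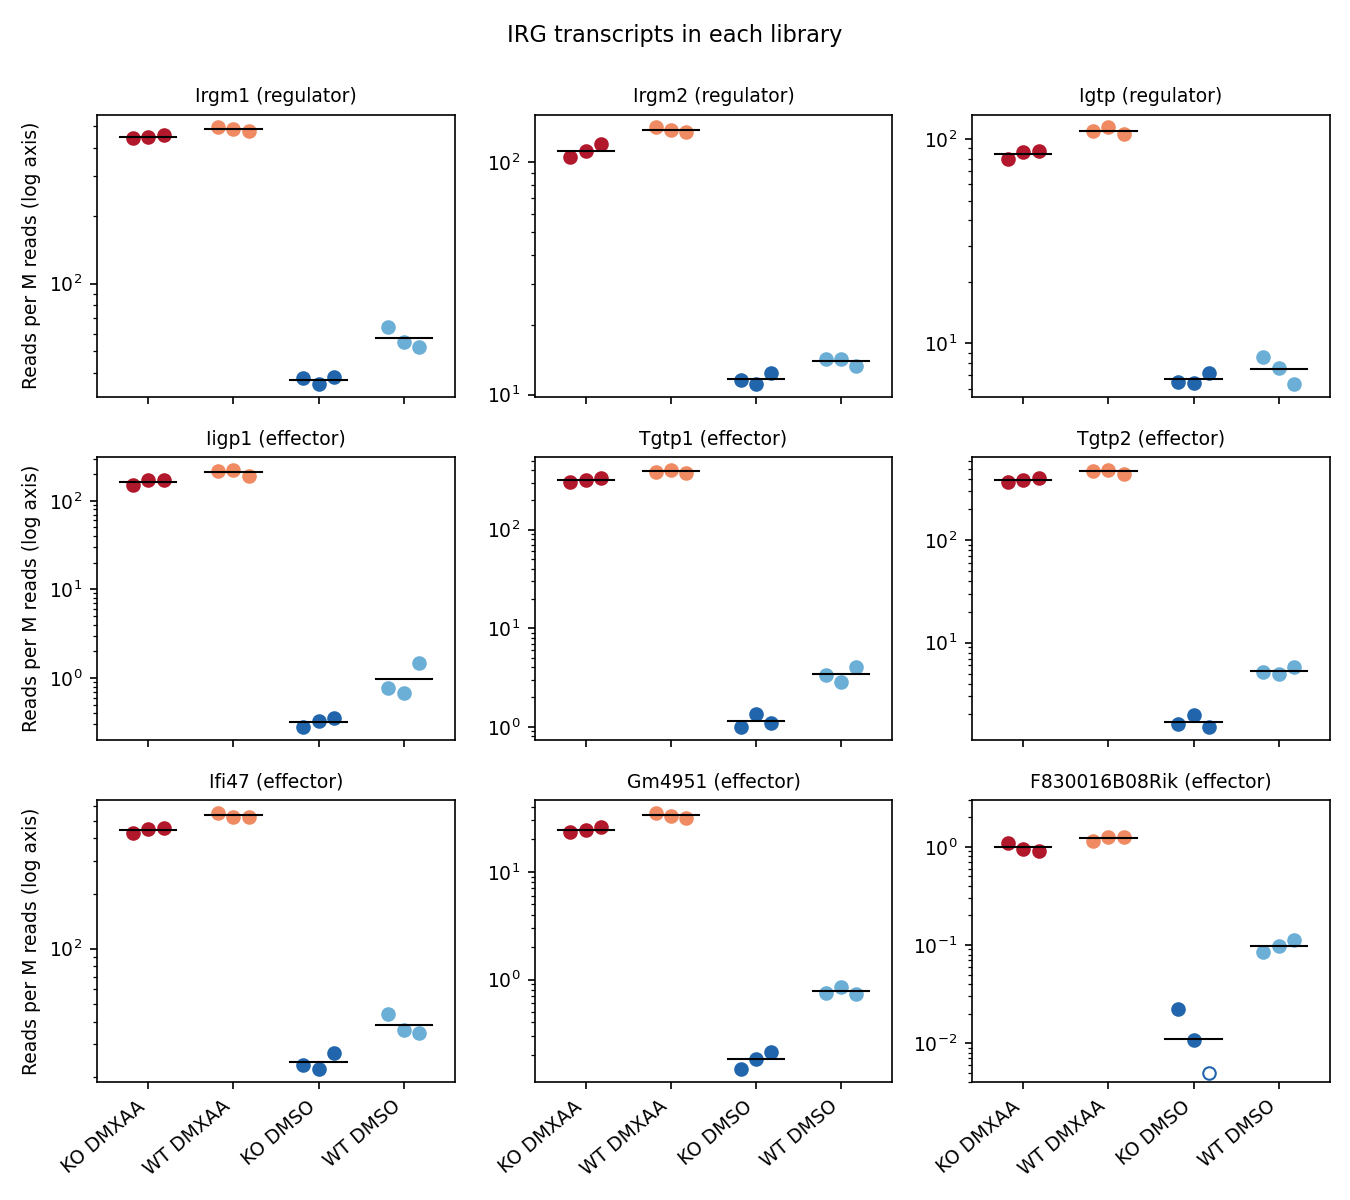
RPM of the 9 IRG genes in each library (points, n = 3 per group) on log axes, with the group mean as a bar, and the library at 0 drawn as an open point at the lower edge. All DMXAA libraries lie above all DMSO libraries for every member, and the gap between KO and WT is wider with DMSO than with DMXAA for Iigp1, Tgtp1, Tgtp2 and Gm4951.

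DMXAA raised the family in both genotypes, and the effectors Iigp1, Tgtp1, Tgtp2 and Gm4951 most. Of the 8 members above a mean of 10 normalized counts in all groups, 8 were higher with DMXAA in KO and 8 in WT, at adjusted p below 0.05 by limma. Among all genes tested, 33.7% were called higher in KO and 31.7% in WT. The median log2 change of the 8 members was 6.0 in KO and 4.96 in WT, against -0.0033 and -0.0027 over all genes tested. The comparisons in KO and in WT rest on separate libraries and on tables scaled apart.

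Iigp1, which loads early onto the vacuole of Toxoplasma, changed most. In KO it had 15699, 17728 and 17904 normalized counts with DMXAA, against 22.4, 25.5 and 28.3 with DMSO (651-fold; log2 9.35, SE 0.10, adjusted p = 5.49e-13). In WT it had 21324, 21904 and 18719.7 with DMXAA, against 60.7, 53.4 and 117 with DMSO (281-fold; log2 8.13, SE 0.24, adjusted p = 1.07e-09). Replicate 3 of WT with DMSO stood well above its pair, and no DMSO library came near any DMXAA library. Its fold ranked 12 of 12704 genes tested in KO and 12 of 12752 in WT.

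Tgtp1 and Tgtp2, both effectors that bind the vacuole membrane, rose together. In KO, Tgtp1 had 31044, 33380.2 and 34774 normalized counts with DMXAA, against 79.7, 105 and 87.8 with DMSO (log2 8.50, SE 0.097, adjusted p = 6.41e-13). In WT it had 37600.1, 39584 and 37251 with DMXAA, against 268, 219.7 and 319 with DMSO (log2 7.16, SE 0.11, adjusted p = 1.72e-11). The Tgtp1 libraries of each treatment lay close together and far from those of the other. Tgtp2 rose by log2 8.23 in KO (SE 0.085) and 6.78 in WT (SE 0.068). It had 40534 ± 2088 counts with DMXAA against 135 ± 16.6 with DMSO in KO, and 46003 ± 1833 against 417 ± 35.2 in WT (mean ± SD, n = 3 each).

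Gm4951, a gene of the same subfamily as Iigp1, had 2414, 2556 and 2742 normalized counts in KO with DMXAA, against 11.6, 14.4 and 17.2 with DMSO (log2 7.40, SE 0.15, adjusted p = 3.18e-11). In WT it had 3425, 3271 and 3108 with DMXAA, against 59.8, 67.0 and 57.4 with DMSO (log2 5.71, SE 0.097, adjusted p = 2.68e-11). Ifi47 had the smallest rise among the 5 effectors tested in all groups. In KO its counts were 44225, 47115 and 47745 with DMXAA, against 1848, 1719 and 2164 with DMSO (log2 4.61, SE 0.077, adjusted p = 6.33e-12). In WT they were 53538, 51642 and 51591 with DMXAA, against 3496, 2798 and 2723 with DMSO (log2 4.13, SE 0.085, adjusted p = 8.62e-11). F830016B08Rik passed the filter on low values through its DMXAA libraries alone, so it is described without a count. Its reads with DMXAA over those with DMSO, per read in listed genes, gave a ratio of 86.0 (95% exact counting interval 29.1 to 419.6) in KO, where the DMSO libraries held 3 reads in all, and 12.5 (95% exact counting interval 8.39 to 19.5) in WT. These intervals cover counting error only.

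The regulators rose by between log2 3.41 and 4.20 in either genotype. Irgm1, which acts on the Golgi, lysosomes and mitochondria, had 45648, 46627 and 47968 normalized counts in KO with DMXAA, against 3036, 2808 and 3088 with DMSO (log2 3.97, SE 0.048, adjusted p = 8.43e-13). In WT it had 47990.0, 47980.4 and 46638 with DMXAA, against 5068, 4275 and 4115 with DMSO (log2 3.41, SE 0.072, adjusted p = 1.05e-10). Irgm2, a Golgi-bound regulator, rose 12.6-fold in KO (log2 3.65, SE 0.070) and 12.4-fold in WT (log2 3.63, SE 0.053). Igtp, a regulator of the endoplasmic reticulum and lipid droplets, rose 16.6-fold in KO (log2 4.05, SE 0.072) and 18.4-fold in WT (log2 4.20, SE 0.10). No regulator had a DMXAA library that overlapped a DMSO library.

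The members were called higher under every scaling tried, but the balance over all genes was not stable. With libraries set to the same total, the median of all genes moved by -0.39 in KO and -0.32 in WT, and with the same upper quartile by -0.15 and -0.13. With the same total, 1998 genes were called higher and 7825 lower in KO, against 4282 and 4180 as deposited. In WT they were 2047 and 7088, against 4047 and 3960 as deposited. The dendritic cell marker list (Flt3, Zbtb46, Xcr1, Siglech and Ccr7) moved with DMXAA too. It summed to 4.10 to 5.41 RPM in KO and 4.20 to 4.69 in WT with DMXAA, with 4 of 5 markers read and Siglech at 0, against 0.150 to 0.259 in KO and 0.152 to 0.528 in WT with DMSO. The macrophage sum was lower with DMXAA in both genotypes, the neutrophil and B cell sums were lower and the T and NK cell sum higher in WT, and the stromal cell sum was lower in KO, each without overlap. The part of these lists in the IRG responses was not tested.

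**Figure D2:**
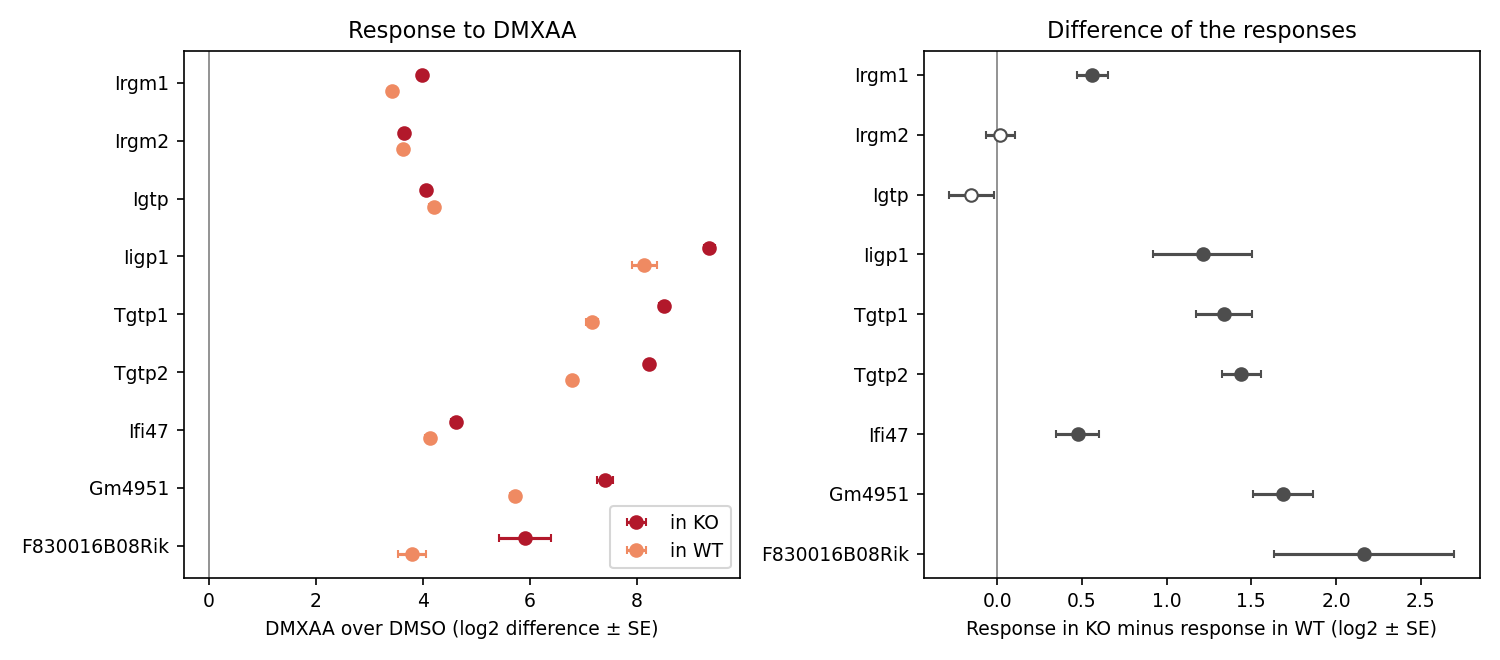
Left, log2 response to DMXAA over DMSO of each member in KO and in WT, and right, the response in KO minus that in WT, each with the SE of the limma fit from 3 libraries per group; filled points passed adjusted p below 0.05, and F830016B08Rik, above the filter through DMXAA alone, is drawn but not counted. Iigp1, Tgtp1, Tgtp2 and Gm4951 have the largest responses, and Irgm2 and Igtp lie at 0 within 2 SE on the right.

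With DMSO, the IRG transcripts were lower in KO than in WT, the effectors by more than the regulators. Of the 8 members tested, 7 were lower in KO, among a background of 9.58% of genes called lower, and Igtp was not called. The median log2 difference was -1.11 over the 8 members and 0.0054 over all 12814 genes tested. In such bulk libraries, fewer cells of a type and less RNA per cell cannot be told apart.

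Among the 8 members tested, Gm4951 differed most, with 12.7, 15.8 and 18.6 normalized counts in KO, against 67.0, 75.2 and 64.2 in WT (log2 -2.08, SE 0.28, adjusted p = 4.58e-04). Every KO library lay far below every WT library. Tgtp2 had 140.3, 168 and 133 counts in KO, against 459.6, 433 and 509.5 in WT (log2 -1.67, SE 0.13, adjusted p = 1.46e-05). Its near-copy Tgtp1 had 86.7, 115 and 95.4 in KO, against 300.1, 246 and 357 in WT (log2 -1.59, SE 0.17, adjusted p = 1.15e-04). Neither gene's groups overlapped. Iigp1 had 24.3, 27.8 and 30.7 in KO, against 68.0, 59.9 and 131 in WT (log2 -1.53, SE 0.31, adjusted p = 0.00602), replicate 3 of WT again standing above the others. Ifi47, the most abundant member, had 2011, 1877 and 2350.5 in KO, against 3916, 3139 and 3047 in WT (log2 -0.69, SE 0.11, adjusted p = 0.00113). F830016B08Rik was below the mean of 10 needed for the test, and its KO to WT ratio was 0.117 (95% exact counting interval 0.0227 to 0.383), from 3 and 26 reads.

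Among the regulators, Irgm1 had 3304, 3066 and 3354 normalized counts in KO, against 5677, 4796 and 4605 in WT (log2 -0.63, SE 0.081, adjusted p = 3.38e-04). It fell 1.55-fold, about as far as Ifi47 at 1.62-fold. Irgm2 had 997, 952 and 1085 in KO, against 1258, 1246 and 1174 in WT (log2 -0.28, SE 0.079, adjusted p = 0.0335). Its groups did not overlap, and its call was lost when the first or second library of either group was left out (adjusted p 0.0748 to 0.113). Igtp had 557, 549.6 and 629 in KO, against 758, 662 and 556 in WT (log2 -0.18, SE 0.12, adjusted p = 0.356), and its groups overlapped.

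The neutrophil, T and NK cell and B cell marker lists were lower in every KO library than in any WT library of the same treatment. Summed over its 8 genes (Ly6g, S100a8, S100a9, Ngp, Camp, Ltf, Elane and Mpo), the neutrophil list was at 0.744 to 1.28 RPM in KO and 5.47 to 7.75 in WT with DMSO, with 5 of 8 genes read in KO (Ly6g, Camp and Elane at 0) and 6 in WT (Ly6g and Elane at 0). With DMXAA it was at 0.774 to 0.834 in KO and 2.72 to 3.06 in WT, with Elane and Mpo at 0 in both. The T and NK cell list (Cd3e, Cd3d, Cd3g, Cd4, Cd8a, Ncr1, Klrb1c and Nkg7) was at 0.687 to 0.834 RPM in KO and 0.979 to 1.37 in WT with DMSO, with 6 of 8 genes read in KO and 5 in WT. With DMXAA it was at 0.632 to 0.927 in KO and 1.54 to 1.84 in WT, with 2 of 8 read in each and Cd3e, Cd3d and Cd3g at 0. The B cell list was at 0.390 to 0.751 RPM in KO and 1.18 to 1.98 in WT with DMSO, with 2 of 5 genes read in KO and 3 in WT. With DMXAA it was at 0.302 to 0.530 in KO and 0.540 to 0.811 in WT, with 3 of 5 read in KO and 4 in WT. The stromal cell list (Col1a1, Col1a2, Col3a1, Pdgfra, Pdgfrb and Dcn) went the other way with DMSO, at 0.992 to 5.87 RPM in KO and 0.402 to 0.884 in WT, with all 6 read in both. With DMXAA it overlapped, at 0.560 to 0.850 in KO and 0.151 to 0.614 in WT, with Col1a2 and Pdgfra at 0 in WT. The macrophage sums given above were lower in KO than in WT with DMXAA without overlap, and overlapped with DMSO. The part of these lists in the genotype differences was not tested.

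With DMXAA, Gm4951, Tgtp1, Tgtp2, Iigp1, Ifi47 and Irgm1 were closer between genotypes than with DMSO, whereas the gap was log2 -0.26 with DMXAA and -0.28 with DMSO for Irgm2, and -0.33 with DMXAA and -0.18 with DMSO for Igtp. Of the 9 members tested, 7 were lower in KO, where 10.8% of all genes were called lower. The median log2 difference was -0.26 over the members and -0.002 over all 12499 genes. With libraries set to the same total, 939 genes were called higher and 1799 lower, against 1335 and 1351 as deposited, and Irgm1 was called as well (log2 -0.11, adjusted p = 0.0377).

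Gm4951 had 2164, 2284 and 2452 normalized counts in KO, against 3167, 3006 and 2864 in WT (log2 -0.39, SE 0.063, adjusted p = 0.00138). Igtp, which had not been called with DMSO, had 7409.8, 8087 and 8183 in KO, against 9848, 10344 and 9565 in WT (log2 -0.33, SE 0.051, adjusted p = 0.00107). Neither gene's groups overlapped. Iigp1 was lower by log2 -0.31 (SE 0.066, adjusted p = 0.00685), with 15309 ± 1074 counts in KO and 19034 ± 1556 in WT. Irgm2 (log2 -0.26), Tgtp1 (-0.25), Tgtp2 (-0.23) and Ifi47 (-0.22) differed by similar amounts, at adjusted p between 0.00273 and 0.00511. Irgm1 had 40916, 41677 and 42889 in KO, against 44372, 44099.7 and 42984 in WT (log2 -0.067, SE 0.034, adjusted p = 0.202). Its groups were close but did not overlap. F830016B08Rik had 101, 89.5 and 85.4 in KO, against 104, 114 and 114 in WT (log2 -0.27, SE 0.16, adjusted p = 0.269), again without overlap and without a call.

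**Figure D3:**
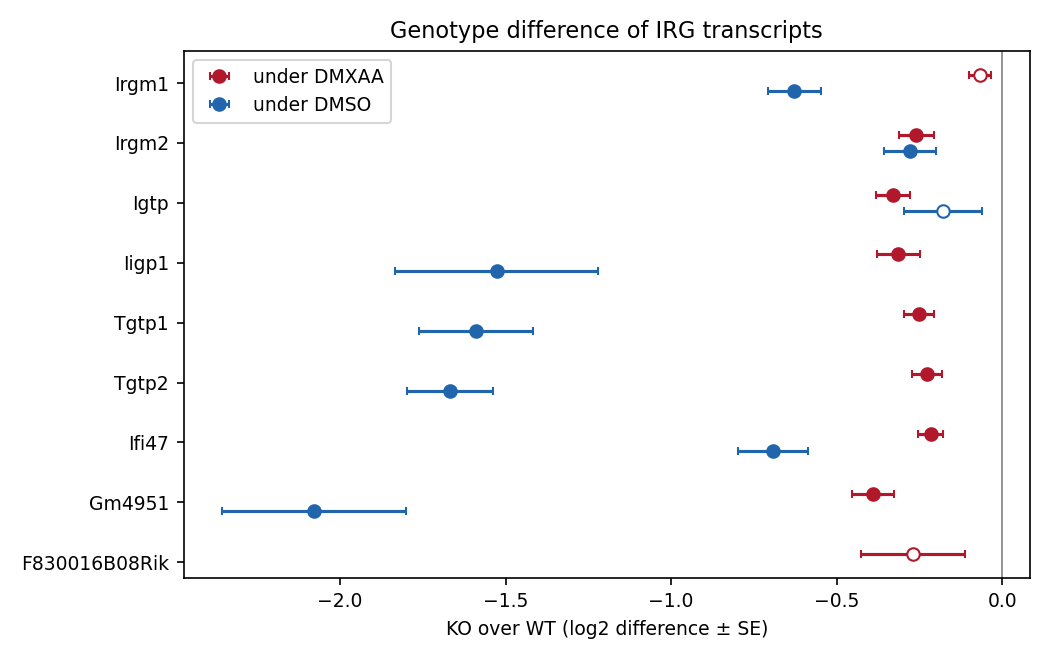
Plot of the log2 difference of KO over WT for each member under DMXAA and under DMSO, with the SE of the limma fit (3 libraries per group); filled points passed adjusted p below 0.05, and F830016B08Rik under DMSO was not tested. Differences under DMXAA lie between -0.39 and -0.067, while Gm4951, Tgtp2, Tgtp1 and Iigp1 lie at or below -1.53 under DMSO.

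The responses of 5 effectors and of Irgm1 to DMXAA were larger in KO than in WT, as tested by the interaction of treatment and genotype over all 12 libraries. Of the 8 members above the filter in all groups, 6 were called higher, where 5.37% of genes were. The median difference of the responses was 0.89 on the log2 scale over the members and 0.00034 over all 12729 genes. With the same total, 482 genes were called higher and 748 lower, against 683 and 412 as deposited, and 6 members were still called. The difference was 1.69 for Gm4951 (SE 0.18, adjusted p = 5.32e-05), 1.44 for Tgtp2 (SE 0.12, adjusted p = 8.21e-06) and 1.34 for Tgtp1 (SE 0.16, adjusted p = 1.70e-04). Iigp1 differed by 1.21 (SE 0.29, adjusted p = 0.0181). Leaving out single libraries moved its value between 0.87 and 1.43, still called by limma, with adjusted p up to 0.0478. These log2 differences are the same quantity as the genotype difference with DMXAA minus that with DMSO, and no member was higher in KO than in WT with DMXAA.

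Irgm1 was the single regulator called, with a difference of 0.56 (SE 0.091, adjusted p = 0.00151). Ifi47 differed by 0.48 (SE 0.13, adjusted p = 0.0305), and this call was lost when the first or second KO library with DMSO, or replicate 2 or 3 of either genotype with DMXAA, was left out (adjusted p 0.0632 to 0.0727). Irgm2 (0.020, SE 0.088, adjusted p = 0.934) and Igtp (-0.15, SE 0.13, adjusted p = 0.57) were not called. The sign for Irgm2 turned under several settings.

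Summed over the family, IRG transcripts made up 0.199% of reads in KO and 0.237% in WT with DMXAA, and 0.00832% in KO and 0.0127% in WT with DMSO. The balance of regulators and effectors turned with treatment. Regulators held 25.0 ± 0.136% of the family's summed RPKM in KO and 24.3 ± 0.104% in WT with DMXAA, and 54.6 ± 1.15% in KO and 47.9 ± 1.22% in WT with DMSO (SD, n = 3 each). The shares of the genotypes did not overlap within either treatment, and the gap was wider with DMSO. The summed regulators were at 149.6 ± 5.29 RPKM in KO and 175 ± 4.33 in WT with DMXAA, and 12.9 ± 0.576 in KO and 17.3 ± 1.69 in WT with DMSO. The summed effectors were at 449.7 ± 19.0 in KO and 546 ± 16.0 in WT with DMXAA, and 10.8 ± 0.947 in KO and 18.8 ± 2.0 in WT with DMSO. Ifi47 alone made up 40.9% of the family in KO and 42.7% in WT with DMSO, so most of the effector sum there was 1 gene. Tgtp1 and Tgtp2 went the other way: they held 16.5% and 22.1% of the family in KO with DMXAA, but 1.52% and 2.46% in KO with DMSO. These sums are descriptions, and no test was made of them.

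**Figure D4:**
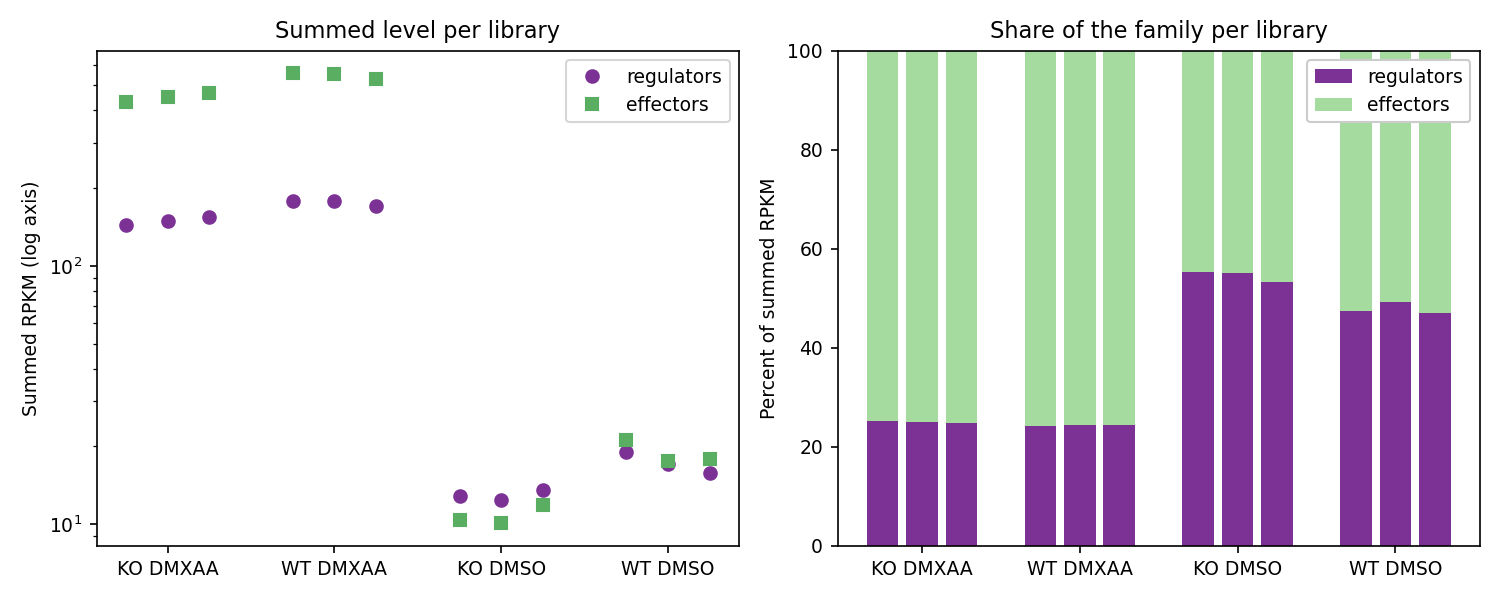
Left, summed RPKM of the 3 regulators and of the 6 effectors in each library on a log axis, and right, their shares of the family in percent, with 3 libraries per group. The regulators average 25.0% (KO) and 24.3% (WT) of the family with DMXAA, and 54.6% (KO) and 47.9% (WT) with DMSO.

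Of the other IRG loci of the mouse, 5 were called higher with DMXAA in both genotypes. Among all genes tested, 33.7% were called higher in KO and 31.7% in WT. Of 10 symbols listed, Gm12250, Gm12185, Gm5431, 9930111J21Rik1, 9930111J21Rik2, Irgq and Irgc1 occur in the tables, and the first 6 were tested. Gm12250, also called Irgb10, rose by log2 4.36 in KO and 3.85 in WT with DMXAA. Gm12185, or Irgb2b1, rose by 3.33 in KO and 3.55 in WT, and Gm5431, or Irgb9b8, by 3.19 in KO and 2.99 in WT. The similar loci 9930111J21Rik1 (2.23 in KO and 2.29 in WT) and 9930111J21Rik2 (2.19 in KO and 2.11 in WT) rose as well. Irgq, which is not known as interferon-inducible, was not called (log2 -0.16 in KO and -0.11 in WT). With DMSO, 2 of the 6 were lower in KO, where 9.58% of all genes were. These were Gm12250 (log2 -0.67, adjusted p = 0.0096) and Gm5431 (log2 -0.34, adjusted p = 0.0166). With DMXAA, Gm12185 (log2 -0.34, adjusted p = 0.00192) and Gm5431 (log2 -0.14, adjusted p = 0.0319) were lower in KO, where 10.8% of all genes were. None of the 6 was called for the interaction by limma, where 5.37% of all genes were called higher and 3.24% lower. Gm12250 came nearest, at 0.51 (adjusted p = 0.057), and 2 of the 6 had an unadjusted p below 0.05, while edgeR called 1 and DESeq2 1.

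The larger interferon-inducible GTPases, of which the guanylate-binding proteins act with IRG proteins at vacuoles, had more genes called lower than higher in KO. Of the 12 guanylate-binding protein, Mx and Gvin1 genes tested with DMSO, 7 were lower in KO and none higher, where 9.58% of all genes were called lower and 7.04% higher, and the median log2 difference was -0.56. Gbp6 (log2 -1.27, adjusted p = 1.35e-04), the antiviral gene Mx2 (log2 -1.20, adjusted p = 2.62e-04) and Gvin1, which encodes a very large inducible GTPase (log2 -0.52, adjusted p = 1.35e-04), had the smallest p. With DMXAA, 8 of 14 were lower and 2 higher, where 10.8% of all genes were lower and 10.7% higher, with a median of -0.27. Those with the smallest p were Gbp6 (log2 -0.46, adjusted p = 1.76e-05), Gbp3 (log2 -0.32, adjusted p = 3.49e-04) and Gbp10 (log2 -0.51, adjusted p = 1.70e-04). The 12 genes above the filter in both groups were all called higher with DMXAA, with a median of 6.06 in KO and 5.75 in WT. Over all genes, 33.7% were called higher in KO and 31.7% in WT. For the interaction, 4 of 12 were called higher, where 5.37% of all genes were. They were led by Gvin1 (log2 0.68, adjusted p = 5.36e-05), Mx2 (log2 1.21, adjusted p = 1.78e-04) and Gbp6 (log2 0.81, adjusted p = 0.00181).

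Of 20 genes of the interferon receptors and JAK-STAT signalling, through which interferon reaches IRG promoters, 5 were lower and 2 higher in KO with DMSO, against the 9.58% and 7.04% of all genes, with a median log2 difference of 0.0038. Irf7, a transcription factor that amplifies type I interferon, was lower by the largest margin of the 3 genes with the smallest p (log2 -1.98, adjusted p = 1.74e-06). The others were Stat2, a subunit of ISGF3 (log2 -0.55, adjusted p = 1.23e-04), and Usp18, a feedback inhibitor of the type I receptor (log2 -1.07, adjusted p = 1.26e-04). With DMXAA, 4 were lower and 6 higher, where 10.8% of all genes were called lower and 10.7% higher, with a median of 0.026. Usp18 (log2 -0.34, adjusted p = 2.53e-04) was among the lower, and the interferon gamma receptor chain gene Ifngr1 (log2 0.40, adjusted p = 4.89e-04) and the transcription factor gene Irf8 (log2 0.27, adjusted p = 4.70e-04) among the higher. The interaction was called higher for 6 genes and lower for 2, where 5.37% of all genes were called higher and 3.24% lower. Irf7 had the smallest p (log2 2.08, adjusted p = 4.61e-07), followed by Stat2 (log2 0.45, adjusted p = 3.18e-04) and Irf8 (log2 0.39, adjusted p = 5.71e-04). DMXAA itself raised 16 of the 20 and lowered 3 in each genotype. For comparison, it raised 33.7% of all genes in KO and 31.7% in WT, and lowered 32.9% in KO and 31.1% in WT.

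Interferon transcripts were scarce at 24 h. Of 10 interferon genes, Ifnb1, Ifna4 and Ifnk occur in the tables, and none reached the filter. Ifnb1 had 17 reads over the 3 KO libraries and 38 over the 3 WT libraries with DMXAA, and 2 in KO and 1 in WT with DMSO. Ifna4 had 1 read in KO and 7 in WT with DMXAA, and 0 in both with DMSO. Ifnk had 3 reads in KO and 1 in WT with DMXAA, and 0 in both with DMSO. A count of 0 allows up to 3 reads in a library.

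The ATG8 conjugation and ubiquitin genes, whose products place IRG proteins on vacuoles and recruit the proteins that follow, were called about as often as all genes with DMSO. Of 18, 2 were lower and 1 higher in KO with DMSO, where 9.58% of all genes were called lower and 7.04% higher, with a median log2 difference of -0.041. The lower genes were Sqstm1 (log2 -0.18, adjusted p = 0.0205) and Atg3 (log2 -0.19, adjusted p = 0.0251), and the higher was Optn (log2 0.41, adjusted p = 0.00375). With DMXAA, the ubiquitin ligase gene Trim21 was lower (log2 -0.27, adjusted p = 0.00569), and Atg7 (log2 0.14, adjusted p = 0.0226) and Atg3 (log2 0.15, adjusted p = 0.0433), both of the conjugation machinery, were higher. There, 10.8% of all genes were called lower and 10.7% higher. The response to DMXAA itself was mixed, with 12 of 18 higher and 5 lower in KO, and 11 higher and 4 lower in WT. By the same calls, DMXAA raised 33.7% of all genes and lowered 32.9% in KO, and raised 31.7% and lowered 31.1% in WT. Trim21 rose most among the genes of this list with the smallest p (log2 1.99, adjusted p = 8.94e-10 in KO and log2 2.08, adjusted p = 5.88e-10 in WT). For the interaction, Atg3 (log2 0.34, adjusted p = 0.00465) and Sqstm1 (log2 0.22, adjusted p = 0.0284) were called higher and Optn (log2 -0.37, adjusted p = 0.0324) lower, where 5.37% of all genes were called higher and 3.24% lower.

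**Figure D5:**
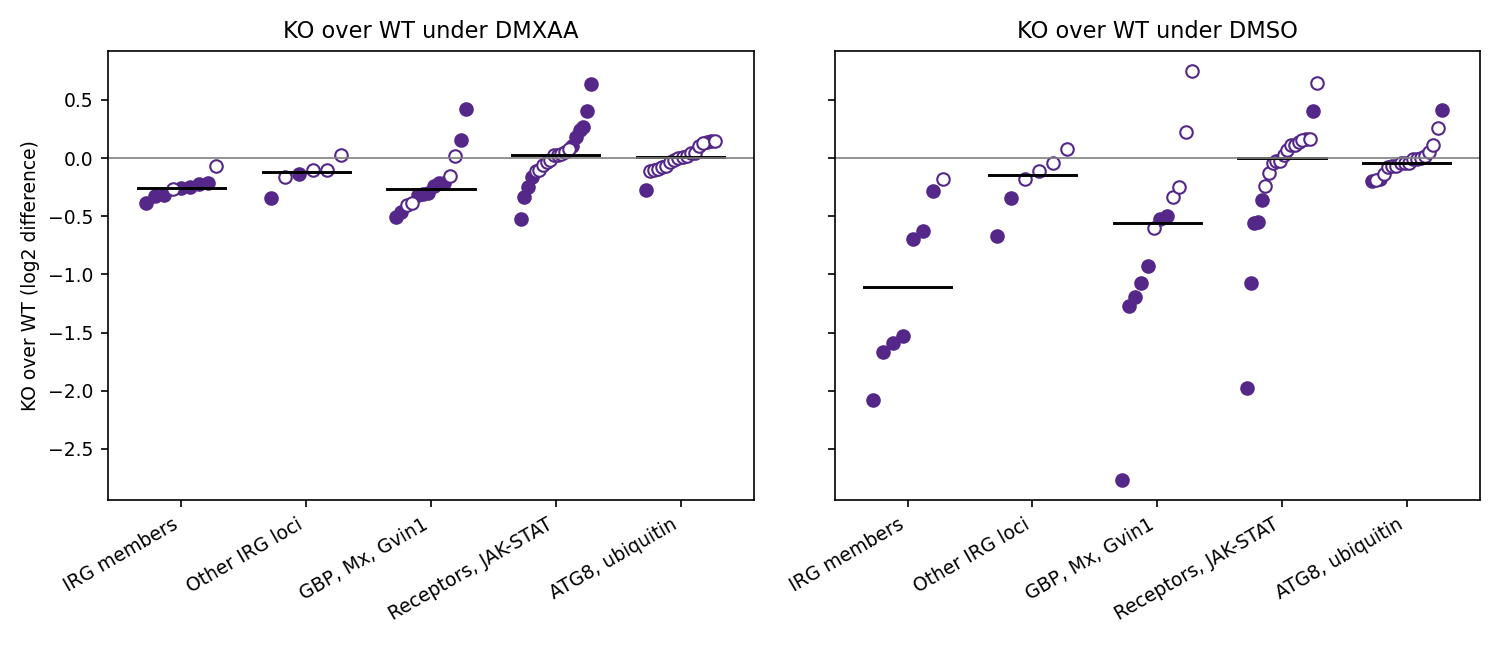
Log2 difference of KO over WT for the genes of each list that passed the filter in both groups (points; filled where adjusted p was below 0.05 by limma; line, median), under DMXAA on the left and DMSO on the right. The IRG members have a median of -0.26 under DMXAA and -1.11 under DMSO, and the receptor and ATG8 lists centre near 0 in both.

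The 5 genes whose levels over the 12 libraries were most like the mean of the IRG members, among 7357 other genes of at least 10 RPM, were Tap1, Isg15, Parp12, Phf11d and Zbp1, all with Pearson's r above 0.9994. Tap1, a peptide transporter subunit of class I antigen presentation, came first with r = 0.9998 and Spearman's rho = 0.986. It averaged 584 ± 15.2 RPM in KO and 657 ± 7.28 in WT with DMXAA, and 83.2 ± 0.549 in KO and 103 ± 5.04 in WT with DMSO (SD, n = 3 each). Zbp1, a sensor of nucleic acids in the Z form, averaged 290.1 in KO and 377 in WT with DMXAA, and 6.94 in KO and 12.7 in WT with DMSO. The points fall into treated and untreated libraries, which sets most of each correlation, and by Spearman's rho 1 of the 5 stayed among the first 5. The members themselves correlated with their mean at r = 0.9955 to 0.9996.

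The authors' deposited tables of fold changes give the same direction as the fits above for all members tested in each of the 4 comparisons, and the same side of an adjusted p of 0.05. For Gm4951 the authors' deposited table has log2 -0.39 for KO over WT with DMXAA and -2.14 with DMSO. For Iigp1 it has -0.31 and -1.64.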

How the data were processed

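RNA of mouse BMMs was sequenced in 12 libraries of 4 groups, with a strand-specific mRNA kit per the labels' protocols. Per the submitters' processing notes, the authors used HISAT2, featureCounts and mm10; the handling of reads with several matches, and all versions, are not given in the sources used here. Values per library are a deposited signal, the normalized count, scaled by the authors within each of 4 tables of 6 libraries. The authors' deposited comparison tables hold log2 fold changes, p-values and adjusted p-values. Dividing the deposited normalized counts by each library's step gave whole reads in 100% of cases, within a tolerance of 0.01.

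Each comparison was fitted within the table holding both groups by limma 3.58.1 (lmFit, eBayes with trend; R 4.3.3) on log2(normalized count + 1), over all genes averaging at least 10. Fold changes are on this log2 scale with a pseudocount of 1, which understates the change of low genes. Calls are two-sided at a Benjamini-Hochberg adjusted p below 0.05. The interaction was fitted over genes listed in both treatment tables. RPM and RPKM come from the recovered reads and GENCODE vM21 exon lengths. Alternatives were edgeR 4.0.16 and DESeq2 1.42.0 on recovered reads, pseudocounts of 0.5 and 5, no filter, other scalings, replicate blocks and leaving out each library. The limma fit was tested on simulated data.

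The members, gene lists and tests were chosen with earlier results of these data known, and the motif letters, the P-loop stretch and the exclusion of F830016B08Rik from counts after the sequences and values had been seen. By rule, all members, Mgmt, the other IRG loci, the 5 most similar genes and the 3 genes of smallest p in each list and comparison are named.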

Additional observations from a re-analysis of the deposited data

Results flagged for a closer look

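In 6 of the 8 members above the filter in all groups, the response to DMXAA was larger in KO than in WT by the interaction term of limma (adjusted p below 0.05), where 5.37% of all genes were called higher. The response in KO minus that in WT, on the log2 scale, was 1.69 for Gm4951, 1.44 for Tgtp2, 1.34 for Tgtp1, 1.21 for Iigp1, 0.56 for Irgm1 and 0.48 for Ifi47. These 6 were also called lower in KO than in WT with DMSO, where 9.58% of all genes were. The interaction contains that DMSO difference, from the same libraries, so these calls are not independent of each other. F830016B08Rik passed the filter through its DMXAA libraries alone and is not counted. Its fitted value of 2.17 rests on 3 reads in KO with DMSO, and ran between 0.95 and 2.86 over the alternatives, so it is given as a value without a call. Groups of 3 libraries are too small to tell whether a single library is an outlier. Runs that left out each library are described below.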

How the results depend on the processing

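All 8 members were called higher with DMXAA in KO and in WT under every alternative run. For KO over WT with DMSO, 6 or 7 of 8 members were called, the range on leaving out each library being the same. The counts were 7 or 8 of 9 with DMXAA and 5 or 6 of 8 for the interaction. No called member changed direction. Irgm2, not called for the interaction, changed sign with the same upper quartile (-0.0015) and the same total (-0.050), and ran between -0.031 and 0.071 when 1 library was left out; the cause was not tested. With a replicate block on the title numbers, 6 members were called for KO over WT with DMSO, Irgm2 being lost (log2 -0.28, adjusted p = 0.0621). With a block on the numerals of the library names, 5 were called for the interaction, Ifi47 being lost (adjusted p = 0.0518). Same-numbered libraries correlated at -0.098 to 0.12 in their deviations from the group means. Every library correlated best with its own number only for DMXAA over DMSO in WT by title number. With 3 libraries per group, these deviations cannot decide whether the numbers pair the libraries. Without the first KO library with DMSO, 1399 genes were called for KO over WT with DMSO, against 2129. Depth limits F830016B08Rik with DMSO, at 0 to 9 reads a library, and the interferons. Over all genes, edgeR on the recovered reads called 8475 for DMXAA over DMSO in KO and 8003 in WT, 2652 for KO over WT with DMXAA, 2127 with DMSO and 1123 for the interaction.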
